A study of Mus musculus with 8 samples.

Results

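The CXC chemokines described here were *Cxcl1*, *Cxcl2*, *Cxcl3*, *Cxcl5*, *Cxcl9*, *Cxcl10*, *Cxcl14* and *Cxcl16*. They were chosen by symbol, 8 of the 53819 gene rows of the count table, and each symbol stood for a single gene ID. The choice was made with their response to bilirubin already known, so their differences between bilirubin and vehicle are given as a description, and their calls in the fit across all genes are only counted. The study asked whether bilirubin, the end product of heme breakdown by heme oxygenase 1 and biliverdin reductase, changes macrophages. Bone marrow from 4 female Balb/cJ mice, 8 weeks old, was grown into macrophages (bone marrow-derived macrophages, BMDM) for 5 days with 25 ng/mL M-CSF, the growth factor that drives macrophage differentiation. Each mouse gave a culture that then received 2.5 µM bilirubin for 48 hours and a culture that received the DMSO vehicle alone, which makes 8 libraries of polyA-selected RNA, 4 in each group. The cells of different mice were grown apart, every group is therefore 4 animals with 1 culture each, and all cultures of both groups had received M-CSF.

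Chemokines are small secreted proteins that direct the movement of leukocytes along a gradient through receptors coupled to G proteins, and the CXC family is named for the residue that separates its first cysteines. The products of *Cxcl1*, *Cxcl2*, *Cxcl3* and *Cxcl5* carry an ELR motif before those cysteines and draw neutrophils through CXCR2, and macrophages are known to release them soon after Toll-like receptor or IL-1 signaling. *Cxcl9* and *Cxcl10* are induced by interferons and draw T and NK cells through CXCR3. *Cxcl14* is made constitutively by many tissues, and *Cxcl16* encodes a membrane-bound chemokine and scavenger receptor that is shed from the cell to act on CXCR6.

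Libraries held 37747315 to 47071714 counts on genes with vehicle and 34142781 to 41054034 with bilirubin. All 8 of the macrophage markers examined were expressed, with summed levels of 30353 to 30586 TPM (a level scaled for transcript length and depth) with vehicle and 34200 to 37948 with bilirubin. Of 9 neutrophil markers 2 reached a mean of 1 TPM. These were *S100a8*, at 52.2 to 62.9 TPM with vehicle and 87.3 to 146 with bilirubin, and *Csf3r*. *Csf3r* overlapped between the groups, at 13.0 to 14.4 TPM with vehicle and 10.4 to 18.8 with bilirubin. The neutrophil sum was 65.8 to 77.9 TPM with vehicle and 111 to 160 with bilirubin. Of the other 7, *Ltf* had at most 30 counts in any library, *Ngp* 28, *S100a9* 20, *Mpo* 18 and *Ly6g* and *Camp* 3, and *Retnlg* had 0. Stromal, endothelial, megakaryocyte, lymphoid, dendritic, mast cell and erythroid marker sums stayed at or below 6.49 TPM in both groups. In bulk RNA, fewer cells of a kind and less RNA per cell cannot be told apart.

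Of the 8 members, 6 passed the filter on low counts and entered the fit across all genes. In that fit 5 of the 6 were past the threshold, an adjusted p of 0.05 in edgeR (quasi-likelihood fit with the mouse as a covariate), where 7.53% of the 13722 tested genes were. The remaining one, *Cxcl10*, was not. Bilirubin cultures were higher for 4 of the 5 (4.49% of all tested genes were called higher) and lower for 1 (3.04% were called lower). The groups did not overlap for 5 of the 6, against 10.6% of tested genes (4 higher, against 5.93%, and 1 lower, against 4.69%), and all 6 moved 1 way in all 4 mice. The median log2 change of the 6 was 1.67, and that of all tested genes was -0.0018. Nothing is read from these counts, since the members were chosen with this contrast known.

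**Figure D1:**
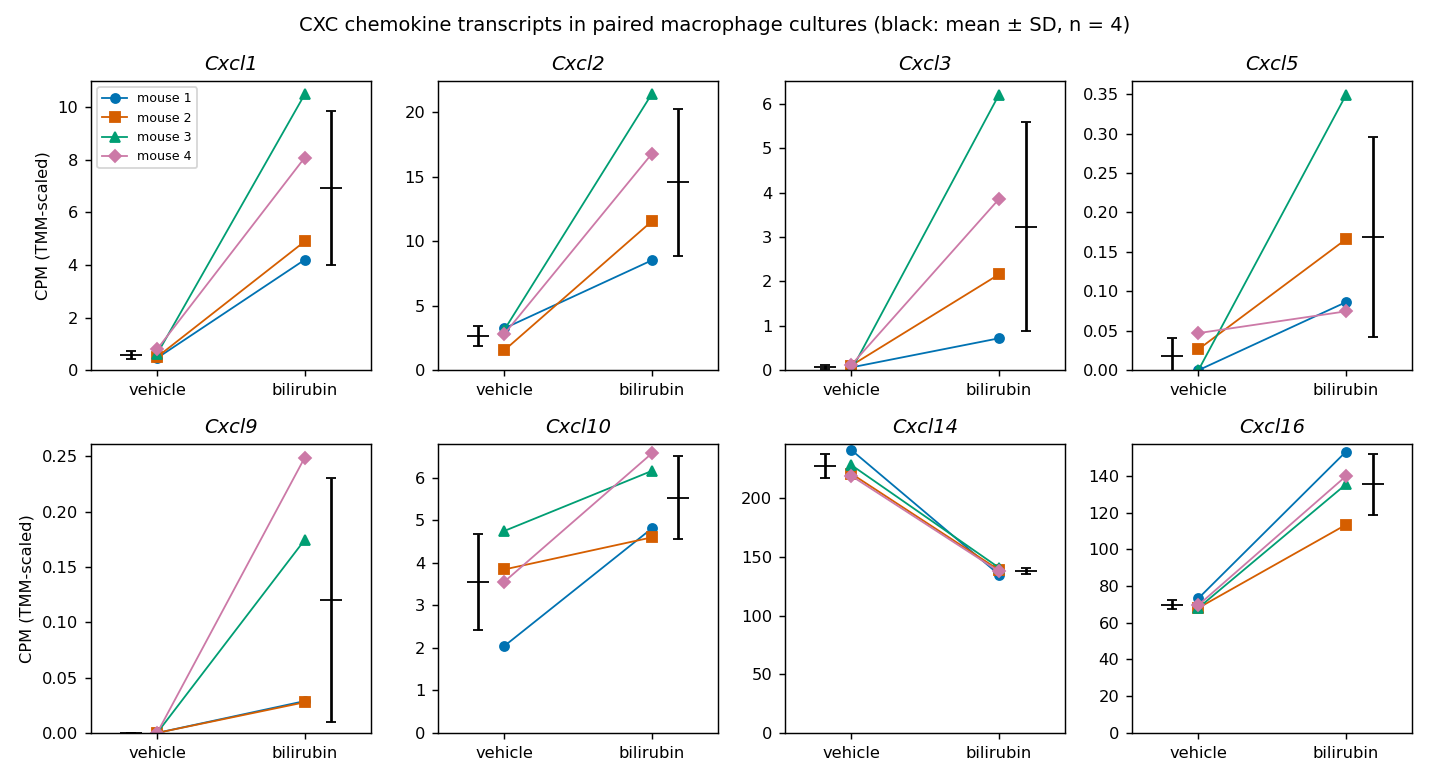
TMM-scaled CPM of each CXC chemokine in every library, with a line joining the vehicle and bilirubin culture of a mouse and black bars for the mean ± SD of 4 mice; each panel has its own scale from 0. *Cxcl1*, *Cxcl2*, *Cxcl3*, *Cxcl5*, *Cxcl9* and *Cxcl16* are higher with bilirubin in every mouse without overlap, *Cxcl10* is higher in every mouse with overlap, and *Cxcl14* falls from 219 to 241 CPM to 135 to 141 CPM. *Cxcl5* and *Cxcl9* had at most 14 and 10 counts per library and did not enter the fit.

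The genes of the neutrophil-attracting group were higher with bilirubin in all 4 mice. Levels of a gene across libraries are given as CPM, the count scaled to library size by TMM, and differences as log2 changes from the fit with their standard errors (SE). Changes in a single mouse are not from the fit. They are differences of log2 CPM with a small constant added to the counts, which makes them smaller than the printed CPM imply where counts are low. *Cxcl1*, a main neutrophil attractant of stimulated macrophages, had 0.463, 0.503, 0.619 and 0.800 CPM with vehicle in mice 1 to 4 and 4.20, 4.90, 10.5 and 8.09 CPM with bilirubin. The highest vehicle culture was therefore below the lowest bilirubin culture, and the counts behind these levels were 19 to 34 and 146 to 421. Its log2 change was 3.49 (SE 0.19), 11.2-fold, and the changes in mice 1 to 4 were 3.05, 3.16, 3.98 and 3.26.

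*Cxcl2*, also called MIP-2, encodes a close relative with the same receptor. Its level was 3.24, 1.54, 3.12 and 2.80 CPM with vehicle and 8.52, 11.5, 21.4 and 16.8 CPM with bilirubin in mice 1 to 4. The groups did not overlap, and mouse 1 had both the highest vehicle culture and the lowest bilirubin culture. The log2 change was 2.40 (SE 0.23), 5.27-fold, with 1.38 in mouse 1 and 2.56 to 2.87 in the others.

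*Cxcl3* was close to absent with vehicle, at 0.0631, 0.106, 0 and 0.118 CPM, or 0 to 5 counts. With bilirubin it had 0.719, 2.16, 6.21 and 3.86 CPM in mice 1 to 4, or 25.1 to 249 counts. Its fitted log2 change was 5.30 (SE 0.58), and it had the widest range across mice of the tested members, from 2.77 in mouse 1 to 6.98 in mouse 3. The size of this change rests on at most 5 counts per vehicle culture. In mouse 3 the vehicle count was 0, so the size of its change depends on the constant added to the counts.

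*Cxcl5*, the remaining neutrophil attractant, was below the filter. It had 0, 1, 0 and 2 counts with vehicle and 3, 6, 14 and 3 counts with bilirubin. The summed counts, 3 and 26, gave a ratio of counts per read of 9.64 with an exact 95% interval of 2.95 to 49.8, which covers counting error only. Mouse 3, which had the highest bilirubin culture for *Cxcl1*, *Cxcl2* and *Cxcl3*, also had the highest for *Cxcl5*.

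The 4 neutrophil attractants lie in a single cluster on chromosome 5 and are all transcribed from the plus strand. In the GENCODE annotation of GRCm39, *Cxcl5* spans chr5:90907186-90909483, *Cxcl3* chr5:90933962-90937459, *Cxcl1* chr5:91039094-91040974 and *Cxcl2* chr5:91051730-91053797. *Cxcl1* and *Cxcl2* are neighbors, 10755 bases apart. *Ppbp* and *Pf4*, which encode chemokines of platelets, lie between *Cxcl5* and *Cxcl3*, and *Cxcl15*, which encodes lungkine, lies between *Cxcl3* and *Cxcl1*. *Cxcl9* (chr5:92469206-92475945, minus strand) and *Cxcl10* (chr5:92494497-92496748, minus strand) form a separate cluster with *Cxcl11*, and *Cxcl9* is 1415408 bases beyond *Cxcl2*. *Cxcl14* lies alone at chr13:56436352-56444603 and *Cxcl16* at chr11:70344517-70352620, both on the minus strand.

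**Figure D2:**
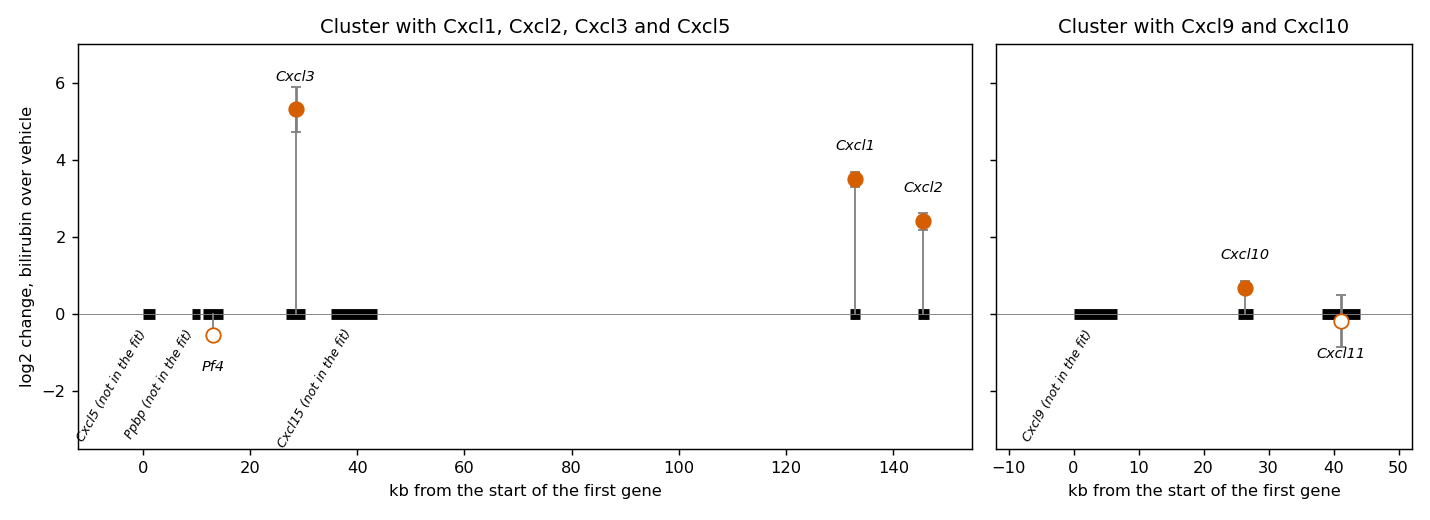
Log2 change with bilirubin (± SE) of the CXC genes of both chromosome 5 clusters, against the distance in kb from the start of the first gene; black bars are the genes, and filled points are chosen members. *Cxcl3*, *Cxcl1* and *Cxcl2* stand between 2.40 and 5.30, while *Pf4* in the same cluster stands at -0.54 and *Cxcl11* beside *Cxcl10* at -0.18; *Cxcl5*, *Cxcl9*, *Ppbp* and *Cxcl15* were not in the fit.

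The promoters of the members were searched because those that were higher with bilirubin include known NFκB targets. The RefSeq promoter table (GRCm38.p6, 250 bases before and 50 bases after each start) held 6 of the 8 members. *Cxcl5* and *Cxcl16* were not among them. The κB motif, GGG and TTCC separated by 3 bases of any kind and searched on both strands, was present in 4 of the 6, the promoters of *Cxcl1*, *Cxcl2*, *Cxcl3* and *Cxcl10*, and in 5.56% of all 32851 promoters. The stretches that hold the matches are printed 5′ to 3′ on the strand of the gene, placed on GRCm39 by exact match, with κB matches in capitals and, in *Cxcl10*, also the interferon-stimulated response element match.
Cxcl3, chr5:90933860-90933924, plus strand: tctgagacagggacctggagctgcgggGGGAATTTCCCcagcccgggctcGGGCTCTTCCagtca
Cxcl1, chr5:91039004-91039058, plus strand: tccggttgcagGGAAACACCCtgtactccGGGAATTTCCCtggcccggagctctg
Cxcl2, chr5:91051653-91051712, plus strand: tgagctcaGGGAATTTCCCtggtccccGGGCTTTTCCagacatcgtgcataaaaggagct
Cxcl10, chr5:92496794-92496968, minus strand: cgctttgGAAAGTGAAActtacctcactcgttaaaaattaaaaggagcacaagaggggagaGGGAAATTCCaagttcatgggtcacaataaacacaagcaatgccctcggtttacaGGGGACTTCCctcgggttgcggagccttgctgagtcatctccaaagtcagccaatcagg

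The promoters of *Cxcl3*, *Cxcl1* and *Cxcl2* hold the same κB match GGGAATTTCC, which begins 73, 71 and 97 bases before the RefSeq start, and a match on the opposite strand, GGAATTTCCC, overlaps it with a shift of 1 base. Each also holds another κB match in the stretch printed, GGGCTCTTCC in *Cxcl3*, GGGCTTTTCC in *Cxcl2* and, on the opposite strand, GGAAACACCC in *Cxcl1*. *Cxcl10* has GGGAAATTCC and GGGGACTTCC, which begin 159 and 104 bases before its start, and GAAAGTGAAA, which begins 213 bases before it. The interferon-stimulated response element, GAAA repeated after 2 bases of any kind, was in 2 of the 6 promoters, *Cxcl10* and *Cxcl14*, and in 3.44% of all. The STAT motif TTCNNNGAA was in 1 of the 6, *Cxcl14*, and in 8.30% of all. In GENCODE, *Cxcl14* starts 239 bases before its RefSeq start. Its matches to these motifs begin 172 and 191 bases before the RefSeq start and so lie within the annotated gene. The AP-1 motif TGANTCA was in 2, *Cxcl9* and *Cxcl10*, and in 7.81%. The *Cxcl9* match begins 31 bases after its start. Matches of different motifs did not overlap each other, and a match says only that these letters are in the window. The sequences are those of the reference genome, and those of the Balb/cJ mice were not examined.

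*Cxcl2* and *Cxcl3* share part of their sequence, and in the bilirubin libraries the counting split reads between them. Of the 31-base words in the transcripts of *Cxcl2*, 161 (7.59%) also occur in those of *Cxcl3*, and no other pair of the 8 members shares any. The words were taken from GENCODE transcripts, and 14 of the 21 member transcripts there had the same length as those quantified. The deposited counts of these genes were often fractional, while their sum was within 0.002 of a whole number in all 7 libraries with a *Cxcl3* count. *Cxcl3* took 0 to 6.45% of the sum with vehicle and 7.81% to 22.5% with bilirubin. Summed as a single gene, an alternative chosen after seeing the data, the pair had a log2 change of 2.62 (SE 0.25).

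The spread between mice differed among the members. With bilirubin, the coefficient of variation (CV) of CPM across mice was 42.2% for *Cxcl1*, 39.1% for *Cxcl2* and 72.9% for *Cxcl3*, where counting error alone gives 6.12%, 4.22% and 8.88%. It was 12.2% for *Cxcl16*, where counting error gives 1.40%. For *Cxcl14* it was 1.76% with bilirubin and 4.40% with vehicle, where counting error gives 1.38% and 1.01%. Mouse 1 had the lowest bilirubin culture for *Cxcl1*, *Cxcl2* and *Cxcl3* and the highest for *Cxcl16*.

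**Figure D3:**
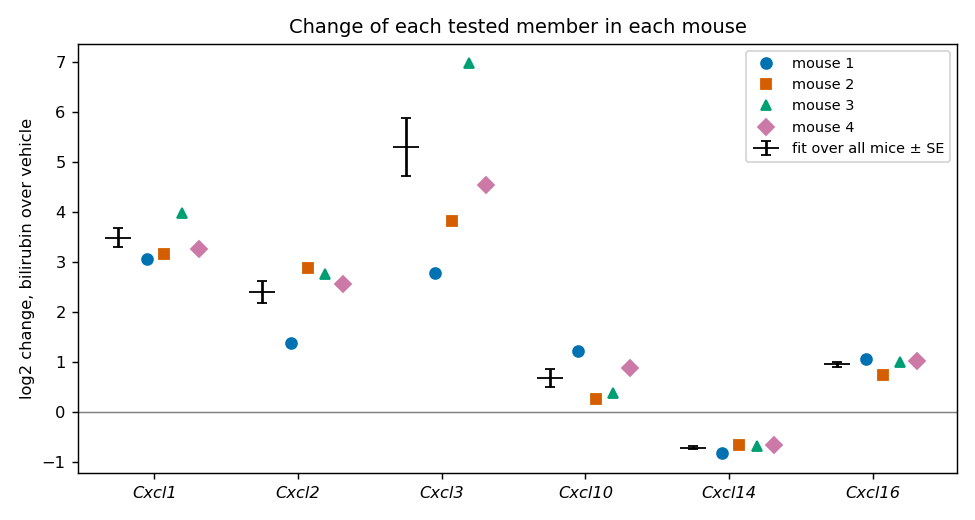
Log2 change of each tested CXC chemokine in each mouse (symbols, from log2 CPM with a small constant added to the counts) and from the fit over all mice (black, ± SE). The 4 mice lie within 2.77 to 6.98 for *Cxcl3* and within -0.84 to -0.67 for *Cxcl14*, and the mouse with the smallest change is mouse 1 for *Cxcl1*, *Cxcl2* and *Cxcl3* and mouse 2 for *Cxcl10* and *Cxcl16*.

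Of the interferon-inducible members, *Cxcl9* was close to absent in both groups and *Cxcl10* was not. *Cxcl9* had 0 counts in all 4 vehicle cultures and 1, 1, 7 and 10 counts in the bilirubin cultures of mice 1 to 4. Against a floor of 3 counts over the vehicle group, the 19 counts with bilirubin were 7.05-fold higher per read. This ratio leaves out the counting error of the 19 counts and the spread between mice. These values are too few for the fit.

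*Cxcl10*, which encodes the T cell attractant IP-10, had 2.04, 3.84, 4.75 and 3.55 CPM with vehicle and 4.81, 4.60, 6.16 and 6.57 CPM with bilirubin. The gene lies within *Art3* on the opposite strand, which had at most 4 counts per library. The *Cxcl10* groups overlapped, since the vehicle culture of mouse 3 was above the bilirubin culture of mouse 2, but each mouse was higher with bilirubin. The log2 change was 0.68 (SE 0.18), with 1.22, 0.26, 0.37 and 0.88 in mice 1 to 4. It was past the threshold with DESeq2, without the filter, with an offset for transcript length and without mouse 1.

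*Cxcl14* was the member lower with bilirubin and the one with the highest level in the vehicle cultures. It had 241, 221, 228 and 219 CPM with vehicle and 135, 139, 141 and 138 CPM with bilirubin in mice 1 to 4. The lowest vehicle culture stood well above the highest bilirubin culture, and the 4 bilirubin cultures lay close to each other. The log2 change was -0.72 (SE 0.039), which is 0.608 of the vehicle level. Of its counts, 99.3% with vehicle and 99.0% with bilirubin were on the longer of 2 coding transcripts.

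*Cxcl16* was higher with bilirubin in every mouse. Its level was 73.3, 68.1, 68.1 and 69.6 CPM with vehicle and 153, 113, 135 and 140 CPM with bilirubin. The vehicle cultures were nearly alike, and the bilirubin cultures were all above them, with mouse 2 the lowest. The log2 change was 0.95 (SE 0.055), 1.93-fold, or 0.74 in mouse 2 and 0.99 to 1.06 in the others.

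The *Cxcl16* counts fell on 3 transcripts. The coding transcript held 58.9% of them with vehicle and 56.6% with bilirubin. A transcript annotated for nonsense-mediated decay held 37.5% and 37.1%, and a retained-intron transcript 3.63% and 6.27%. The gene overlaps *Med11* and *Zmynd15* on the opposite strand, and whether the counting used strand is not given in the sources used here. *Med11* had 692 to 926 counts and *Zmynd15* 93 to 203, against 2569 to 5620 for *Cxcl16*.

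For the neutrophil attractants, transcript make-up was pooled over the 4 libraries of a group. The coding transcript of *Cxcl1* held 85.9% of the gene's counts with vehicle and 96.6% with bilirubin. The rest was on a retained-intron transcript, with 0 to 7.18 counts per vehicle library and 7.49 to 9.93 per bilirubin library. For *Cxcl2* the coding transcripts held 70.6% and 84.0%. Coding shares were 100% and 99.4% for *Cxcl3*, and 100% and 95.1% for *Cxcl5*. These shares are assignments by Salmon. With vehicle they rest on 102 *Cxcl1*, 467 *Cxcl2*, 12 *Cxcl3* and 3 *Cxcl5* counts over the 4 libraries.

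Compared per transcript length, the members differed widely in level in the vehicle cultures. *Cxcl14* came first at 214 ± 11.4 TPM (SD, n = 4) and *Cxcl16* next at 65.1 ± 2.25 TPM. *Cxcl10* at 6.22 ± 1.19 TPM and *Cxcl2* at 5.51 ± 1.67 TPM overlapped, and *Cxcl1* followed at 1.09 ± 0.377 TPM. *Cxcl3* at 0.132 ± 0.0973 TPM, *Cxcl5* at 0.0203 ± 0.0252 TPM and *Cxcl9* at 0 could not be ranked, since their ranges overlapped.

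With bilirubin *Cxcl14* at 126 ± 3.85 TPM and *Cxcl16* at 124 ± 17.5 TPM overlapped, and each was the higher in 2 of 4 mice. These levels are summed over all transcripts of a gene, coding or not. Only 58.9% of *Cxcl16* counts with vehicle and 56.6% with bilirubin were on its coding transcript, against 100% for *Cxcl14*. Levels of coding transcripts alone were not compared. *Cxcl2* at 26.1 ± 9.53 TPM, *Cxcl1* at 13.0 ± 5.51 TPM, *Cxcl10* at 10.1 ± 2.52 TPM and *Cxcl3* at 5.68 ± 4.14 TPM came next. Neighbors in that order overlapped across mice, yet within each of the 4 mice they stood in the same order. *Cxcl9* and *Cxcl5* were the lowest with bilirubin, at 0.224 ± 0.342 and 0.180 ± 0.133 TPM.

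The summed level of the 8 members was 281 to 311 TPM with vehicle and 266 to 333 TPM with bilirubin, with means of 292 ± 13.5 and 305 ± 27.9 TPM (SD, n = 4), so the groups overlapped in the sum while its make-up differed. *Cxcl14* held 73.3% ± 0.727 of the sum with vehicle and 41.6% ± 3.71 with bilirubin, and *Cxcl16* held 22.3% ± 0.728 and 40.5% ± 4.40. The neutrophil attractants together held 2.30% ± 0.533 and 14.6% ± 5.24, from 4.24 to 8.00 TPM with vehicle and 26.5 to 68.3 TPM with bilirubin. The TPM ratio of *Cxcl14* to *Cxcl16* was 3.14 to 3.40 in the vehicle cultures and 0.897 to 1.22 in the bilirubin cultures. This ratio and the share of *Cxcl16* include its transcripts that are not annotated as coding. The ratio of *Cxcl2* to *Cxcl1* was 9.24, 3.87, 5.13 and 3.57 with vehicle and 2.04, 2.18, 1.84 and 2.12 with bilirubin in mice 1 to 4. The summed neutrophil markers were higher in the same cultures as the neutrophil attractants. Of the 2 markers that reached 1 TPM, this held for *S100a8*, while *Csf3r* overlapped between the groups. The part of such markers in these differences was not tested.

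**Figure D4:**
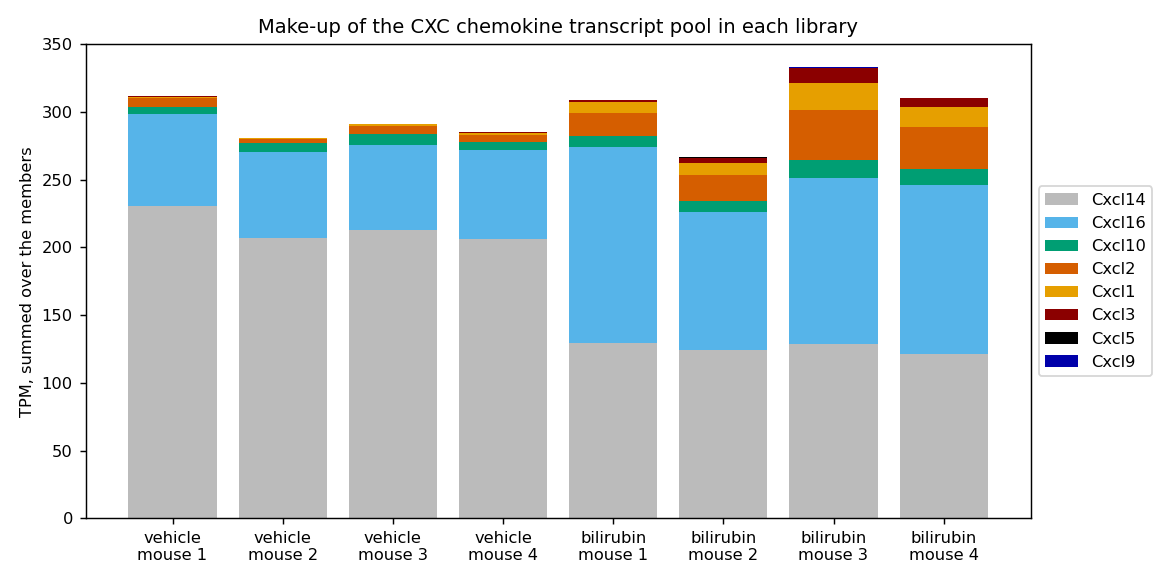
TPM of the 8 CXC chemokines stacked for each library. The bars are of similar height, 281 to 311 TPM with vehicle and 266 to 333 TPM with bilirubin, while *Cxcl14* makes up 72.3% to 74.0% of the vehicle bars and 38.5% to 46.6% of the bilirubin bars.

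The other CXC ligands were not among the chosen members, and their calls come from the fit across all genes, in which 4.49% of genes were called higher and 3.04% lower. These and the lists that follow were also chosen with earlier results of these data known. Of 7, 2 were tested, 0 were called higher and 1 was called lower, with a median log2 change of -0.36 over the tested genes. *Pf4*, which encodes platelet factor 4 and is also expressed by macrophages, fell from 53.0, 61.3, 51.2 and 59.5 CPM with vehicle to 33.1, 42.3, 38.6 and 41.0 CPM with bilirubin. The groups did not overlap, and every mouse was lower. Its log2 change was -0.54 (SE 0.050, Benjamini-Hochberg adjusted p = 0.000543, edgeR quasi-likelihood test), and it passed under all 12 alternatives. At 210 ± 17.5 TPM with vehicle *Pf4* was close to *Cxcl14*, the highest of the members. *Cxcl11*, the remaining ligand of CXCR3 beside *Cxcl10*, had 1 to 12 counts and a log2 change of -0.18 (SE 0.68, adjusted p = 0.924 by the same edgeR test), which was 0.26 without mouse 1. *Ppbp* with 0 to 16 counts and *Cxcl12* with 1 to 22 counts were not tested, and *Cxcl13*, *Cxcl15* and *Cxcl17* had 0 counts in every library.

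The receptors of these ligands were mostly at or near 0. Of 9 CXC and scavenging receptors 3 were tested, 0 were called higher and 1 was called lower, with a median log2 change of -0.27. *Cxcr4*, the receptor of CXCL12, was highest, with 335, 348, 315 and 290 CPM with vehicle and 264, 327, 238 and 246 CPM with bilirubin. It fell in all 4 mice although the groups overlapped, by 0.27 on the log2 scale (SE 0.051, Benjamini-Hochberg adjusted p = 0.0167, edgeR quasi-likelihood test). The adjusted p by the same test was 0.127 without mouse 3, 0.0863 without mouse 4 and 0.170 without the mouse in the model, and it ranged from 2.08e-07 to 0.170 over the 12 alternatives.

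*Cxcr2*, the receptor of the neutrophil attractants, had 5 to 27 counts per library. Its log2 change of -0.27 (SE 0.43) did not pass, and it was 0.11 without mouse 4. *Cxcr3*, the receptor of CXCL9 and CXCL10, had 3.25 ± 0.677 CPM with vehicle and 2.97 ± 0.632 CPM with bilirubin (SD, n = 4). Its log2 change was -0.14 (SE 0.22), and 0.10 without mouse 3. *Cxcr6*, the receptor of CXCL16, had 0 counts in 7 libraries and 1 in the other, *Cxcr1*, *Cxcr5* and *Ackr4* had at most 5, and *Ackr1* and *Ackr3* had 0 throughout.

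Among 9 genes of enzymes that cleave or shed CXC chemokines, 5 were tested, 2 rose and 0 fell, with a median log2 change of 0.35. *Mmp9*, a gelatinase that trims neutrophil-attracting chemokines, rose from 0.463, 0.238, 0.206 and 0.141 CPM with vehicle to 13.5, 5.73, 23.5 and 15.5 CPM with bilirubin. The groups did not overlap, and the log2 change was 5.72 (SE 0.30, Benjamini-Hochberg adjusted p = 3.84e-05, edgeR quasi-likelihood test). *Adam17*, a sheddase of membrane proteins that include CXCL16, rose from 280 ± 10.8 to 371 ± 24.9 CPM (SD, n = 4), a log2 change of 0.41 (SE 0.039, adjusted p = 0.000604 by the same edgeR test). *Adam10*, a constitutive sheddase of CXCL16 and named here after its values were seen, had a log2 change of -0.08 (SE 0.032, adjusted p = 0.208 by the same edgeR test). *Mmp12*, the macrophage elastase, had a log2 change of 0.35 (SE 0.14) that did not pass, and it was 0.53 and passed without mouse 1.

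Genes whose products set how long chemokine mRNAs last mostly did not pass the threshold. Of 10 tested, 1 rose and 1 fell, with a median log2 change of 0.02. *Zc3h12a*, which encodes the ribonuclease Regnase-1, had 17.4, 17.5, 17.3 and 18.2 CPM with vehicle and 21.8, 26.6, 28.0 and 36.7 CPM with bilirubin. Its log2 change was 0.66 (SE 0.099, Benjamini-Hochberg adjusted p = 0.00475, edgeR quasi-likelihood test), and the adjusted p was 0.0583 without mouse 3 and 0.0944 with an offset for transcript length, within 2.27e-12 to 0.0944 over the 12 alternatives. *Rc3h2*, the Roquin-2 gene, fell by 0.18 on the log2 scale (SE 0.037, adjusted p = 0.0231 by the same edgeR test). It passed under 6 of 12 alternatives and did not without mouse 2, mouse 3 or mouse 4 (adjusted p = 0.0749, 0.132 and 0.155), in a range from 0.00788 to 0.155. *Zfp36l2*, a relative of tristetraprolin with 551 to 567 CPM as group means, had a log2 change of -0.042 (SE 0.032) that did not pass.

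Of 19 transcription factor and IκB genes known to act on CXC chemokine promoters, 4 rose, 0 fell and 15 did not pass, with a median log2 change of 0.16. The 4 were *Nfkbia*, which encodes IκBα and is itself an NFκB target, *Fos*, *Nfkbiz* and *Bcl3*. *Nfkbia* rose from 89.3 ± 8.90 to 153 ± 24.8 CPM (SD, n = 4), a log2 change of 0.77 (SE 0.067, Benjamini-Hochberg adjusted p = 0.000382, edgeR quasi-likelihood test). *Nfkbiz*, whose product IκBζ is a nuclear partner of NFκB, rose by 0.93 (SE 0.11, adjusted p = 0.00187 by the same edgeR test). *Fos* rose by 0.45 (SE 0.043) with overlapping groups, and *Bcl3* by 0.58 (SE 0.095), where leaving out mouse 3 or mouse 4 gave an adjusted p of 0.0532 or 0.0594 by the same edgeR test within 3.84e-09 to 0.0594 over the alternatives. *Jun* had a log2 change of -0.014 (SE 0.038), which was 0.0031 without mouse 1 and 0.0064 without mouse 3.

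Of 16 cytokines, receptors and sensors that induce CXC chemokines, 12 were tested, 7 rose (4.49% of all tested genes were called higher) and 0 fell, with a median log2 change of 0.36. *Il1b*, the cytokine gene, rose from 0.631, 0.530, 0.734 and 1.32 CPM with vehicle to 4.23, 2.63, 10.7 and 6.05 CPM with bilirubin, a log2 change of 2.80 (SE 0.28, Benjamini-Hochberg adjusted p = 0.000711, edgeR quasi-likelihood test). *Tlr2*, a sensor of bacterial lipoproteins, rose from 52.6 ± 2.17 to 126 ± 21.0 CPM (SD, n = 4), a log2 change of 1.25 (SE 0.078, adjusted p = 7.58e-05 by the same edgeR test). *Tnf* rose by 0.79 (SE 0.074) and *Tnfrsf1b*, a TNF receptor, by 0.41 (SE 0.039), while *Tnfrsf1a* had a log2 change of 0.025 (SE 0.034) that did not pass and was -0.0019 when scaled by library size alone. *Il1a* (log2 change 3.51, SE 0.43), *Ifngr2* (0.31, SE 0.034) and *Ifnar1* (0.18, SE 0.042) were also called higher. *Ifng* and *Il17a*, known inducers of *Cxcl9* and *Cxcl5*, had 0 counts in every library, *Ifnb1* at most 2 and *Il6* at most 7. The genes from *Il1a* to *Il6* in this list were named here after their values were seen.

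**Figure D5:**
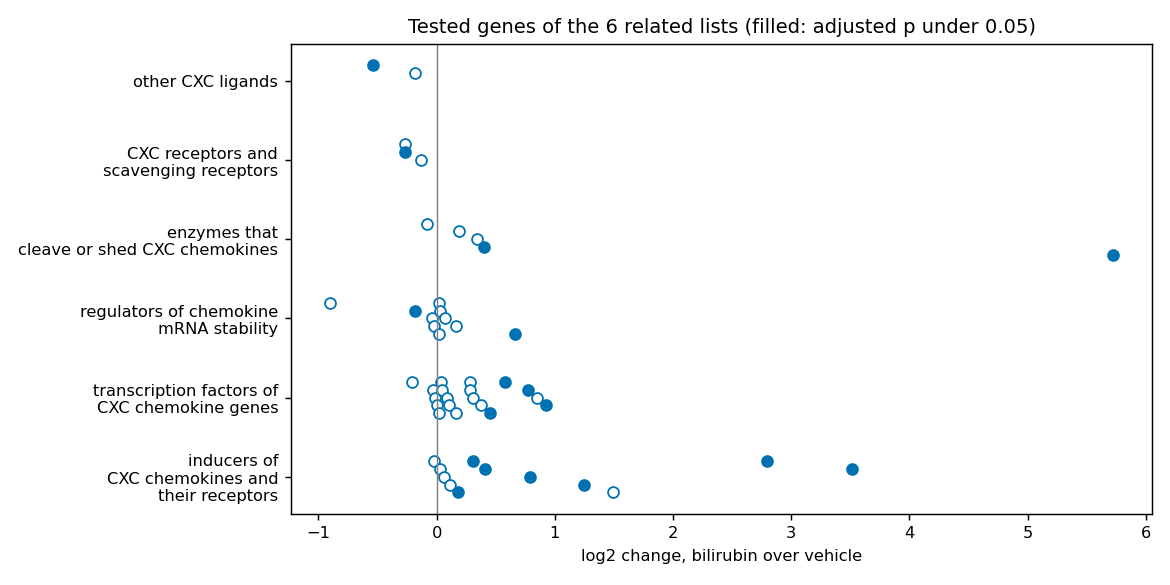
Log2 change with bilirubin of every tested gene of the 6 related lists, filled where the adjusted p was under 0.05; the vertical offset within a list only separates points. The called gene is on the lower side for other CXC ligands and for receptors, and the inducers have 7 of 12 tested genes called higher.

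Genes whose levels followed each member most closely over the 8 libraries are given as a description, since all points share the split into vehicle and bilirubin. Among about 10905 other tested genes, *Cxcl1* was most like *Clec4e* (Pearson r = 0.992 of log2 CPM, n = 8 libraries), then *Mefv* and *Pcx*. *Cxcl2* was most like *Clec4a2* (r = 0.990), *Tnf* and *Pde2a*. For *Cxcl3* these were *Zc3h12c* (r = 0.989), *Cs* and *Slc4a7*, and for *Cxcl10* they were *Cmtm3* (r = 0.981), *Abcd4* and *Lox*. *Cxcl14* went with *Zranb3* (r = 0.990), *Zc3hav1l* and *Bcl2l1*, and *Cxcl16* with *Marco* (r = 0.996), *Cybb* and *Tlr2*. No gene was closest to more than 1 member by this measure.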

How the data were processed

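PolyA-selected RNA of 8 BMDM cultures, a vehicle and a bilirubin culture of each of 4 mice, was sequenced. The authors trimmed reads with Trim Galore 0.6.7 and Cutadapt 3.4, aligned them with STAR 2.7.9a to GRCm39 and quantified transcripts with Salmon 1.10.1. The deposited files hold Salmon's estimated counts per gene, unscaled and 88.5% whole, and for every library the estimated counts and TPM of 142434 transcripts. Salmon assigns shared reads by a model, so counts of near-identical sequences can move between genes. Gene counts, rounded to whole numbers, entered edgeR 4.0.16 under R 4.3.3 (TMM scaling, filterByExpr, mouse and treatment in the model, quasi-likelihood test, Benjamini-Hochberg adjustment over 13722 genes, threshold 0.05). TPM was summed over each gene's transcripts. On simulated data with the mouse in the model, 75% of genes changed by 1 on the log2 scale and 98.89% of those changed by 2 were recovered among 13555 genes, and 8.74% of calls were false. This is a larger share than the threshold of 0.05 allows. Without the mouse in the model the recovery was the same and 1.18% of calls were false.

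The label of each culture gives a BMDM number, which was taken as the mouse and gives the pairing. Deviations from the group means of cultures of a mouse correlated at 0.108, 0.134, 0.108 and -0.0053. Cultures of different mice had a mean correlation of -0.028 and a highest of 0.0751, which is above the value of mouse 4. Counting intervals cover counting error only. A group at 0 was set to a floor of 3 counts over the group for a ratio, which leaves out the counting error of the other group.

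Named genes were the 8 members and all other CXC ligands and receptors. Each other list added its called genes, up to the 4 with the smallest adjusted p, and the uncalled gene of the highest mean count. Genes marked as named after their values were seen stand outside this rule. Likeness named the 3 closest genes per member whose mean log2 CPM reached 1. Members, lists and tests were chosen with earlier results of these data known. Alternatives were treatment alone, DESeq2 1.42.0, limma 3.58.1 (voom), other scaling and filters, a transcript length offset, and leaving out each mouse.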

Additional observations from a re-analysis of the deposited data

Results flagged for a closer look

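Across the 54 groups of 4 libraries examined, 1 value stood far from the others of its group by Dixon's measure, where chance gives about 1 in 20. *Tlr2*, among the genes that induce CXC chemokines, had a log2 CPM of 6.57 in the bilirubin culture of mouse 2 and of 7.09 to 7.10 in the other bilirubin cultures, so that this gap made up 0.984 of the range of the group, past the 95% critical value. Other genes lowest in that culture among the bilirubin cultures included *Cxcl10*, *Cxcl16*, *Il1b*, *Mmp9*, *Nfkbia*, *Nfkbiz* and *Bcl3*. Those lowest in the bilirubin culture of mouse 1 included *Cxcl1*, *Cxcl2*, *Cxcl3*, *Cxcl14* and *Tnf*.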

How the results depend on the processing

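The members were chosen on this contrast, so their values under the alternatives are a description. Leaving out each mouse gave log2 changes of 3.26 to 3.59 for *Cxcl1*, 2.26 to 2.74 for *Cxcl2*, 4.40 to 5.71 for *Cxcl3*, -0.74 to -0.68 for *Cxcl14* and 0.91 to 1.02 for *Cxcl16*, with 5 to 6 members past the threshold (4 to 6 over all alternatives). *Cxcl3* did not enter the fit with a CPM above 1. *Cxcl10* passed with DESeq2 (log2 change 0.68), without a filter (0.67), with the length offset (0.73) and without mouse 1 (0.51 in a range of 0.51 to 0.81). The causes were not tested. Of all genes 1033 passed, 686 with no replicate block in the model (no mouse pairing), 1692 without a filter, 579 with the length offset and 377 to 1910 without 1 mouse, the lowest without mouse 3, with 441 without mouse 4, 634 without mouse 2 and the highest without mouse 1. Of other CXC ligands and receptors 2 passed, 1 with no replicate block and 1 to 2 without 1 mouse. Of the other 4 lists 15 passed, 25 without a filter and 11 to 22 without 1 mouse. Opposite signs were seen for *Cxcl11* (0.26 without mouse 1, -0.93 without mouse 2), *Cxcr2* (0.11 without mouse 4, -0.67 without mouse 2), *Cxcr3* (0.10 without mouse 3, -0.30 without mouse 1), *Jun* (0.0031 and 0.0064 without mouse 1 and 3, -0.039 without mouse 2) and *Tnfrsf1a* (-0.0019, library size alone), which passed in none of these. In CPM in place of TPM, vehicle shares were 0.197% for *Cxcl1*, 0.875% for *Cxcl2*, 1.17% for *Cxcl10* and 74.8% for *Cxcl14*. With 200 bases before the start, the interferon-stimulated response element and the AP-1 motif were each in 1 promoter. Depth limits *Cxcl3* with vehicle, *Cxcl5* and *Cxcl9*, which rest on few counts.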
